A study of Homo sapiens with 7 samples.

Results

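The genes described here are those of the Notch pathway: its receptors, ligands, modifying enzymes, proteases, nuclear partners, inhibitors and target genes. They were chosen by gene symbol from a list of 35 names, all of which were found among the 28517 named entries of the deposited tables. RNA was sequenced from the human MYCN-amplified neuroblastoma line NGP and from lines derived from it with mutations in ARID1A, which encodes the DNA-binding subunit of a SWI/SNF chromatin remodeller. The groups were control NGP cells (2 libraries), ARID1A-/- line 1 (2 libraries), ARID1A-/- line 2 (2 libraries) and ARID1A+/- cells (1 library). All, controls included, were grown with 10% serum and puromycin at 0.5 µg/ml. In each of the 3 groups with 2 libraries, the kit was SMARTer Universal Low Input for 1 and KAPA mRNA HyperPrep for the other; the ARID1A+/- library is a KAPA library. The labels do not say how the control was matched to the mutants, whether each mutant line is 1 clone, or whether libraries of 1 group are separate cultures. P-values therefore weigh differences against the spread of these libraries alone, which can be technical.

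Notch receptors are single-pass proteins that bind Delta-like and Jagged ligands on neighbouring cells. Fringe and other glycosyltransferases add sugars to the receptor's extracellular repeats and so set which ligands it answers to. After binding, ADAM proteases and then gamma-secretase cut the receptor. Its intracellular domain enters the nucleus, joins the DNA-binding protein RBPJ and a Mastermind coactivator, and switches on several HES and HEY genes. HES and HEY proteins are repressors that hold back proneural factors, and in neuroblastoma Notch activity has been linked to a mesenchymal cell state.

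Total counts ranged from 24445301 to 43644361 per library. ARID1A RNA, the check of the labels, stood at 22.3 and 22.0 RPKM (counts scaled by gene length and by the library's total; SMARTer, then KAPA) in the control, 16.7 and 17.2 in line 1, 14.2 and 13.8 in line 2, with 19.9 in ARID1A+/- cells. It was lower in every library of both mutant lines. The log2 fold change was -0.70 ± 0.11 (SE) in line 2 (edgeR adjusted p = 0.00937), -0.38 ± 0.11 in line 1, which missed the threshold of 0.05 (adjusted p = 0.0663), and -0.54 ± 0.09 over both (adjusted p = 0.0122). Both calls were lost without the SMARTer control, the KAPA control, either library of line 2 or the term for the kit (adjusted p from 0.0562 to 0.142). HAND2, a transcription factor of the sympathetic lineage, lay between 276 and 349 RPKM in all 7 libraries. Markers of other cell types were summed over fixed lists. The 6 Schwann cell markers together came to 0.32 to 1.58 RPKM, the 7 endothelial markers to 0.33 to 1.11, the 6 epithelial markers to 0.20 to 1.97 and the 6 immune markers to 3.42 to 5.15, of which CD68 made up most. The 8 fibroblast markers summed to 100 to 101 RPKM in the control, 224 to 246 in line 1, 61.9 to 65.3 in line 2, with 111 in ARID1A+/- cells. COL1A1 accounted for most of that movement, at 60.2 and 62.6 RPKM in the control, 156 and 171 in line 1, then 30.3 and 19.9 in line 2, while its partner chain COL1A2 stayed at 0.00 to 0.03 RPKM in all 7 libraries. The other fibroblast markers did not all follow the sum: LUM stood at 2.04 and 1.72 RPKM in the control, 17.1 and 17.3 in line 1, then 3.25 and 3.42 in line 2, and DCN at 0.30 and 0.03, 4.44 and 2.21, then 4.02 and 3.74, so that both were above the control in line 2 as well. PDGFRB was below the control in both lines (4.07 and 3.58, 2.37 and 2.73, then 2.27 and 1.75). PECAM1 and CD3E, defining endothelial and T cell genes, had 0 counts in each. In such bulk samples, fewer cells of a type and less RNA per cell cannot be told apart.

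The promoters of 4 HES and HEY genes are shown because these genes went in different directions in the mutant lines: HES4 and HES6 fell in both, HES1 rose in line 1 and fell in line 2, and HEYL passed the threshold in neither. Each is the 250 bases before the transcription start in RefSeq's GRCh38.p14 annotation, written 5′ to 3′ on the gene's strand, with every TGGGAA, the core of the sequence RBPJ binds, in capitals on either strand (TTCCCA on the other). HES1 lies at chr3:194135898-194136147 (+), HES4 at chr1:1000098-1000347 (-), HEYL at chr1:39639644-39639893 (-) and HES6 at chr2:238240039-238240288 (-).
HES1: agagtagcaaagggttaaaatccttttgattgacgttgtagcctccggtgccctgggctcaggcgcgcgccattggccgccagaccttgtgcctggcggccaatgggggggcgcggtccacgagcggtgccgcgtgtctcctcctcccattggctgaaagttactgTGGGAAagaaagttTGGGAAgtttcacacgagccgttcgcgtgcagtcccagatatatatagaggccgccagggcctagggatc
HES4: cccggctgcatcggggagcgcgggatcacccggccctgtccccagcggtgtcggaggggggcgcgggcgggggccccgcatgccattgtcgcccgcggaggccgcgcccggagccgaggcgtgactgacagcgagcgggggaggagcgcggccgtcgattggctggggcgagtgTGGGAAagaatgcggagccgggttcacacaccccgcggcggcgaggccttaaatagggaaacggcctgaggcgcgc
HEYL: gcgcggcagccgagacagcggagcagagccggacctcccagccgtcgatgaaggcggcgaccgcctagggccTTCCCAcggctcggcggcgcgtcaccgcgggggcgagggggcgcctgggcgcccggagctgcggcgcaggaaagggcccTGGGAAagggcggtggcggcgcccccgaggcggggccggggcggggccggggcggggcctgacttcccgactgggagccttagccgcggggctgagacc
HES6: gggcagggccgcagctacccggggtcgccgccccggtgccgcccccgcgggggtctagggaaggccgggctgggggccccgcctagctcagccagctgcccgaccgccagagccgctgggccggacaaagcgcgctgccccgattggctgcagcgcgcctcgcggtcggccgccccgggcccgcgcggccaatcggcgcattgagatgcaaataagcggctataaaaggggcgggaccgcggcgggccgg
The HES1 promoter holds the core at 84 and 70 bases before the start, both on the gene's own strand. HES4 holds it 76 bases before the start, HEYL at 99 bases on its own strand and at 178 bases on the other, and HES6 does not hold these letters in this window.

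A search of the same windows set these against the rest of the pathway. RefSeq promoters were matched for 29 of the 35 genes and gave 35 windows, since some genes have several starts; MFNG, HEY1, DLL3, DLK1, DNER and DLL1 were not matched. The longer motif GTGGGAA, searched on both strands and containing the core, was found in 6 of the 35 windows (17.1%), those of HES1, HES4, HES5, HEY2, HEYL and 1 start of RBPJ, against 1906 of all 35116 promoter windows (5.43%). The shorter TGGGAA was in 8 of 35 (22.9%) against 20.8% of all. CACGTG, an E-box, was in 2 of 35 windows, POGLUT1 and ADAM10, against 6.34% of all. The median number of CpG dinucleotides per window was 28 for the Notch genes and 11 over all promoters. A match is a description of letters and not of binding.

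To ask how loss of ARID1A moved the pathway, each ARID1A-/- line was compared with the control in 1 edgeR fit with a term for the kit, and a gene was called at a Benjamini-Hochberg adjusted p under 0.05 over all 14711 genes tested. Of the 35 Notch genes, 28 passed the filter on low values (a mean of at least 0.5 RPKM over the 6 control and ARID1A-/- libraries) and 7 did not: NOTCH2, NOTCH3, NOTCH4, DLL4, HES2, HES5 and HEY2. NOTCH1, DNER, MFNG and HES1 passed it although at least 1 group was below 0.5 RPKM, so they entered through the groups in which they are high. Averaged over both lines, 10 of the 28 fell (NOTCH1, JAG2, DLK1, DNER, MFNG, LFNG, PSEN2, NRARP, HES4 and HES6), beside 9.57% of all genes tested, and 0 rose, beside 4.64% of all. The median change of the 28 was -0.17 on the log2 scale, against 0.02 over all genes tested. At an unadjusted p under 0.05, edgeR had 2 Notch genes higher, beside 13.2% of all genes, and 12 lower, beside 16.7%; DESeq2 called 1 higher, MAML2, a Mastermind coactivator (0.78 on the log2 scale, DESeq2 adjusted p = 0.0376), and limma on log2(RPKM + 1) called 0. All 10 that fell were lower than the control in 4 of 4 comparisons within a kit, which follows largely from calling them on these same libraries. POFUT1, ADAM10 and NUMBL, which were not called, were also lower in 4 of 4. The count of 10 rested on having both control libraries: without the SMARTer control 3 genes were still called lower, and without the KAPA control 5 were, each from 27 tested, since NOTCH1 then fell below the filter. Without a term for the kit the count was 4. The share of all genes called in this and the other alternative fits is not given here. Whether the loss of calls is particular to Notch genes was not tested. Some of these genes also differed between the SMARTer and KAPA libraries in the same edgeR fit. HES4 (2.25 ± 0.22 on the log2 scale, edgeR adjusted p = 0.00949), JAG2 (0.97 ± 0.19, 0.0279) and NUMBL (0.51 ± 0.13, 0.045) read higher in SMARTer libraries. MAML2 read lower (-0.89 ± 0.19, 0.0355). Of all genes, 7.99% were higher and 5.3% lower. Kit, replicate and total count go together in these 6 libraries, so their parts cannot be told apart.

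**Figure D1:**
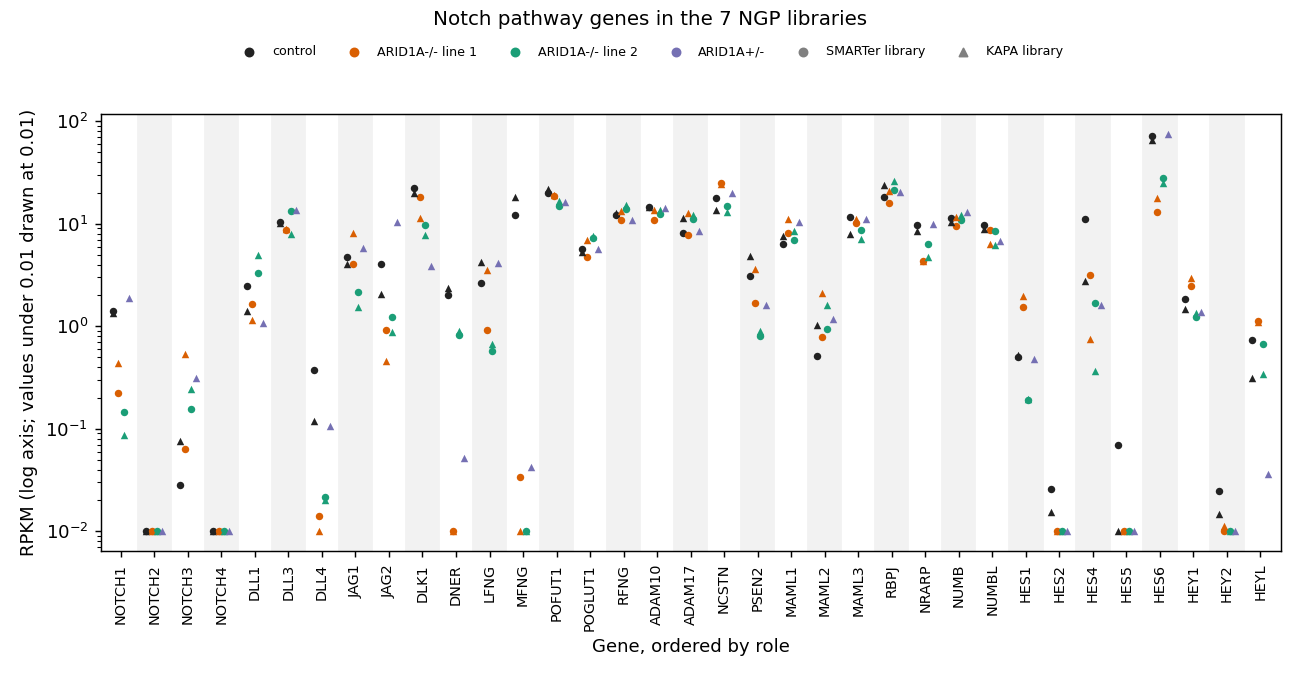
Level of each of the 35 Notch genes in RPKM (log axis, values under 0.01 drawn at 0.01) in the 7 libraries, ordered by role; colour gives the group and shape the kit, with 1 point per library. MFNG, DNER and HES6 separate control from both ARID1A-/- lines, and MFNG and DNER are also low in ARID1A+/- cells, while the points of RBPJ, POFUT1 and ADAM10 lie close together.

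Of the receptors, NOTCH1 was the only member of the 4 to pass the filter, and it was already low. Its level was 1.41 and 1.35 RPKM in the control (SMARTer, then KAPA, here and below), 0.22 and 0.44 in line 1, and 0.15 and 0.09 in line 2. Control and mutant libraries did not overlap. NOTCH1 fell by 2.08 ± 0.37 (SE) on the log2 scale in line 1 (edgeR adjusted p = 0.0157) and by 3.57 ± 0.40 in line 2 (adjusted p = 0.00299), and the difference between the lines, 1.49 ± 0.40, missed the threshold (adjusted p = 0.0583). The gap between the lines did pass it in 4 other settings: with DESeq2 (adjusted p = 0.00647), with no filter, without the SMARTer library of line 1 (2.07, adjusted p = 0.00402) and without the SMARTer library of line 2 (2.11, adjusted p = 0.0461). In ARID1A+/- cells NOTCH1 stood at 1.87 RPKM, above both controls.

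NOTCH3 moved the other way from a lower base. It had 10 and 15 counts in the control, 21 and 138 in line 1, 51 and 57 in line 2, with 83 in ARID1A+/- cells, which is 0.03 to 0.08 RPKM in the control and at most 0.54 in any library. Within each kit both lines were above the control, although the SMARTer library of line 1 (0.06 RPKM) lay below the KAPA control (0.08). In a fit without the filter it was 2.16 ± 0.52 higher on the log2 scale over both lines (edgeR adjusted p = 0.0206), 2.22 ± 0.57 in line 1 (adjusted p = 0.0293) and 2.11 ± 0.57 in line 2 (adjusted p = 0.0366). NOTCH2 had at most 4 counts in any library and shares near-identical sequence with its NOTCH2NL copies, so its level is uncertain, and NOTCH4 had 0 in all 7.

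Among the ligands that activate Notch, JAG2 fell in both lines while JAG1 and DLL1 separated them. JAG2 stood at 4.02 and 2.07 RPKM in the control, 0.92 and 0.46 in line 1, 1.22 and 0.88 in line 2, with 10.4 in ARID1A+/- cells. All 4 mutant libraries were below both controls, and the ARID1A+/- library was above every other. JAG2 fell by 2.13 ± 0.23 on the log2 scale in line 1 (edgeR adjusted p = 0.00296) and by 1.51 ± 0.23 in line 2 (adjusted p = 0.00856). The call for JAG2 was lost without the SMARTer control, both in line 1 (-2.03, adjusted p = 0.0626) and in line 2 (-1.42, adjusted p = 0.126); in line 2 it was also lost without the KAPA control (-1.64, adjusted p = 0.0528) and without line 2's own SMARTer library (-1.24, adjusted p = 0.0503).

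JAG1, the other Jagged ligand, stood at 4.72 and 4.01 RPKM in the control, 4.05 and 8.16 in line 1, 2.14 and 1.55 in line 2, with 5.78 in ARID1A+/- cells. Line 2 lay below every other library, while line 1 straddled the control. JAG1 fell by 1.28 ± 0.33 on the log2 scale in line 2 (edgeR adjusted p = 0.0475), and line 1 exceeded line 2 by 1.73 ± 0.33 (adjusted p = 0.0202). The fall in line 2 was lost without the SMARTer control (-1.0, adjusted p = 0.324), without the KAPA control (-1.52, adjusted p = 0.1) and without the KAPA library of line 2 (-0.93, adjusted p = 0.249), and the gap between the lines without that same line 2 library (1.34, adjusted p = 0.116). RLE scaling (adjusted p = 0.0522), upper-quartile scaling (0.054) and limma on log2(RPKM + 1) (0.0896) also ended the call in line 2. Without the SMARTer library of line 1, JAG1 passed the threshold as higher in line 1 than in the control (1.05, adjusted p = 0.00581), a value that then rests on the KAPA library at 8.16 RPKM; without the KAPA library of line 1 the mean over both lines passed it as lower (-0.76, adjusted p = 0.00338).

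DLL1, a Delta-like ligand, went the opposite way from JAG1, at 2.48 and 1.40 RPKM in the control, 1.64 and 1.14 in line 1, 3.31 and 4.91 in line 2, with 1.08 in ARID1A+/- cells. Line 2 lay above all other libraries. Line 1 was lower than line 2 (log2 difference -1.56 ± 0.35, edgeR adjusted p = 0.0337), whereas line 2 against the control, 1.10 ± 0.35, missed the threshold (adjusted p = 0.0851). The comparison of line 2 with the control passed it with DESeq2 (adjusted p = 0.017), with no filter, and without the SMARTer library of line 2 (1.72, adjusted p = 0.0105) or either library of line 1 (1.05 each, adjusted p = 0.025 and 0.026). The gap between the lines was lost without the KAPA library of line 2 (-0.85, adjusted p = 0.149), without the KAPA library of line 1 (-1.30, adjusted p = 0.0532) and without the SMARTer control (-1.50, adjusted p = 0.0529).

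The remaining Delta-like ligands gave fewer signals. DLL3, a Delta-like protein that acts inside the cell as an inhibitor, ranged from 7.93 to 13.7 RPKM over the 7 libraries and was called in none of the 4 contrasts. DLL4 had 56 and 10 counts in the control, 2 and 1 in line 1, 3 and 2 in line 2, with 12 in ARID1A+/- cells. Every mutant library was below both controls, and in the fit without the filter DLL4 fell by 3.87 ± 0.61 on the log2 scale over both lines (edgeR adjusted p = 0.00186). On summed counts that is 8 in the 4 mutant libraries against 66 in the controls, 17.7-fold lower (95% exact binomial interval 8.46 to 42.6, which covers counting error only).

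Both noncanonical ligands fell. DLK1, a Delta homologue that lacks the domain by which ligands activate Notch, stood at 22.5 and 19.99 RPKM in the control, 18.3 and 11.4 in line 1, 9.74 and 7.81 in line 2, with 3.85 in ARID1A+/- cells. The mutant libraries were all below the control, line 2 below line 1, and ARID1A+/- lowest of all. DLK1 fell by 1.32 ± 0.18 on the log2 scale in line 2 (edgeR adjusted p = 0.0063), whereas -0.54 in line 1 missed the threshold (adjusted p = 0.0996), and the lines differed by 0.78 ± 0.18 (adjusted p = 0.037). Leaving out any of 5 libraries (all but the KAPA library of line 1) cost that gap its call, with values from 0.51 to 0.87 and adjusted p from 0.064 to 0.221. The fall in line 2 was lost without the SMARTer control (-1.51, adjusted p = 0.0516) or the KAPA control (-1.16, adjusted p = 0.0605), and line 1 passed without its SMARTer library (-0.81, adjusted p = 0.0286).

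DNER, a neuronal transmembrane protein with Notch-like repeats, separated the lines further. It stood at 2.00 and 2.35 RPKM in the control, 0.00 and 0.00 in line 1, 0.83 and 0.90 in line 2, with 0.05 in ARID1A+/- cells. Line 1 had 0 counts in both libraries, which is at least 182-fold lower than the control with 3 counts over the group taken as the floor, and at least 70.4-fold lower than line 2. DNER fell by 1.37 ± 0.26 on the log2 scale in line 2 (edgeR adjusted p = 0.0256), a call that was lost without either control (adjusted p = 0.201 without SMARTer and 0.171 without KAPA) or either library of line 2 (0.116 and 0.174 likewise), with values between -1.34 and -1.43, and with limma on log2(RPKM + 0.1) (-1.24, adjusted p = 0.0629). The edgeR adjusted p was 0.000683 for line 1 against the control and 0.00152 for line 1 against line 2.

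**Figure D2:**
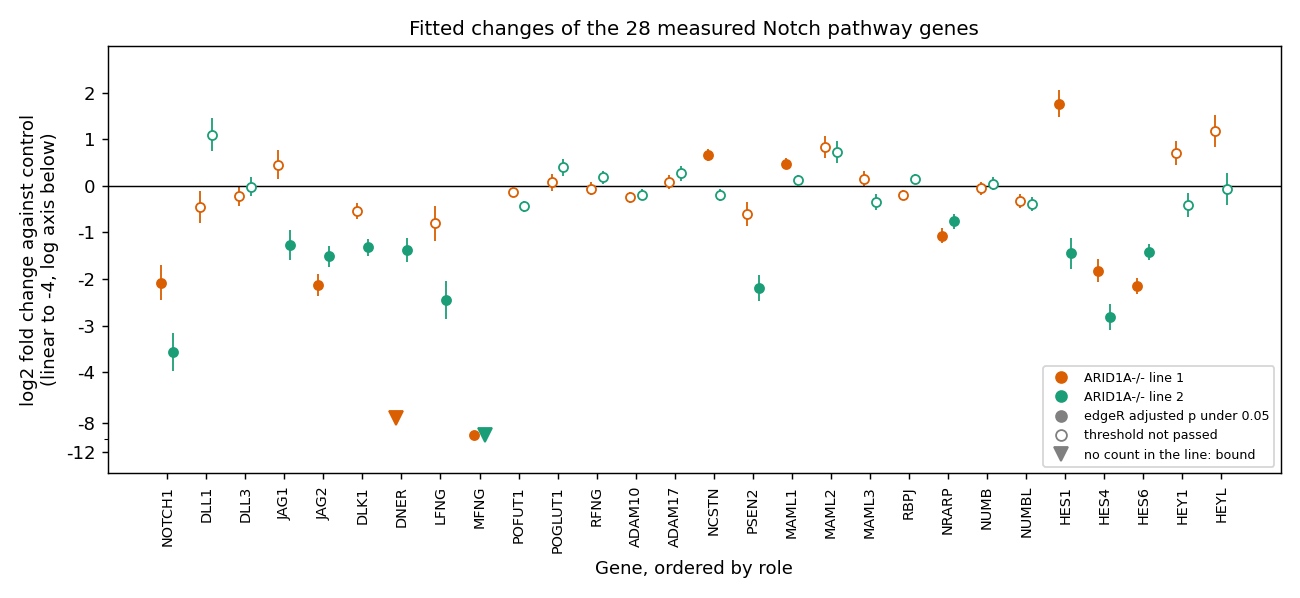
Log2 fold change of the 28 tested Notch genes in ARID1A-/- line 1 and line 2 against control, with bars of 1 SE; the axis is linear to -4 and logarithmic below, filled points passed an edgeR adjusted p under 0.05, and triangles are bounds where a line had no count. Filled points lie below 0 in both lines for NOTCH1, JAG2, MFNG, NRARP, HES4 and HES6, with DNER in line 1 and MFNG in line 2 as bounds, while HES1 is filled on opposite sides of 0.

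The fringe enzymes MFNG and LFNG, which add N-acetylglucosamine to fucose on the receptor, fell, while RFNG and the enzymes that add the fucose and glucose themselves did not pass the threshold. MFNG stood at 12.2 and 18.1 RPKM in the control. It had 3 and 0 counts in line 1, 0 and 0 in line 2, with 3 in ARID1A+/- cells, against 1137 and 945 in the control, so that it was near absent from every mutant library, the heterozygous line included. On summed counts line 1 was 750-fold lower than the control (95% exact binomial interval 256 to 3642) and line 2 at least 735-fold lower, with edgeR adjusted p of 0.000751 and 0.000683.

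LFNG fell less evenly, from 2.64 and 4.23 RPKM in the control to 0.91 and 3.57 in line 1 and 0.57 and 0.67 in line 2, and was 4.14 in ARID1A+/- cells. The KAPA library of line 1 lay between the controls. LFNG fell by 2.45 ± 0.41 on the log2 scale in line 2 (edgeR adjusted p = 0.0123), and -0.81 in line 1 missed the threshold (adjusted p = 0.214) but passed it without that KAPA library (-1.59, adjusted p = 0.00753). The lines differed by 1.65 ± 0.41 (adjusted p = 0.0456), a call that was lost with RLE or upper-quartile scaling, with limma and without any of 4 libraries (both controls, the KAPA library of line 1 and the KAPA library of line 2; values 0.88 to 1.60, adjusted p 0.0817 to 0.261). The fall in line 2 was lost without the SMARTer control (-2.21, adjusted p = 0.142) or the KAPA library of line 2 (-2.01, adjusted p = 0.0674).

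RFNG, the third fringe, ranged from 10.8 to 15.3 RPKM over the 7 libraries, POFUT1, which adds the fucose, from 14.8 to 21.7, and POGLUT1, which adds glucose, from 4.77 to 7.68. None of these 3 was called in edgeR's main contrasts. POFUT1 in line 2 passed the threshold in 4 other settings, DESeq2 (-0.45, adjusted p = 0.0229) and upper-quartile scaling (-0.46, adjusted p = 0.045) and without either library of line 1 (-0.44 each, adjusted p = 0.0211 and 0.0161). RFNG shares exonic bases with GPS1 on the opposite strand, and whether counting used the strand is not given in the sources used here.

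Of the proteases, PSEN2 fell and NCSTN rose, each in 1 line, while neither ADAM enzyme was called. PSEN2, a catalytic subunit of gamma-secretase, stood at 3.07 and 4.81 RPKM in the control, 1.70 and 3.65 in line 1, 0.80 and 0.90 in line 2, with 1.62 in ARID1A+/- cells. Line 2 lay below every other library, and line 1 overlapped the control across kits. PSEN2 fell by 2.20 ± 0.28 on the log2 scale in line 2 (edgeR adjusted p = 0.00453), -0.61 in line 1 missed the threshold (adjusted p = 0.181), and the lines differed by 1.59 ± 0.28 (adjusted p = 0.0152). The fall was lost without the SMARTer control (-2.21, adjusted p = 0.0678) and the gap without the KAPA library of line 2 (1.29, adjusted p = 0.109).

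NCSTN, the gamma-secretase subunit that receives the substrate, stood at 17.9 and 13.6 RPKM in the control, 25.0 and 24.2 in line 1, 14.99 and 13.2 in line 2, with 19.98 in ARID1A+/- cells. Line 1 was above every other library. NCSTN rose by 0.66 ± 0.13 on the log2 scale in line 1 (edgeR adjusted p = 0.023) and line 1 exceeded line 2 by 0.85 ± 0.13 (adjusted p = 0.0097). The rise was lost without the SMARTer control (0.78, adjusted p = 0.0982) or the KAPA control (0.51, adjusted p = 0.182), and the gap without the SMARTer (0.82, adjusted p = 0.0642) or KAPA (0.91, adjusted p = 0.0559) library of line 2. ADAM10 ranged from 11 to 14.7 RPKM and ADAM17 from 7.77 to 12.8 over all libraries, with neither called. NCSTN and ADAM17 share exonic bases with COPA and IAH1 on the opposite strand.

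Of the 4 genes of the nuclear complex, 1 was called, as a small rise. RBPJ, the DNA-binding protein, ranged from 15.9 to 26.0 RPKM and was called in no contrast. MAML1, a coactivator, stood at 6.29 and 7.57 RPKM in the control, 8.18 and 11.2 in line 1, 6.89 and 8.51 in line 2, with 10.5 in ARID1A+/- cells. Line 1 was above both controls, with a log2 fold change of 0.47 ± 0.11 (edgeR adjusted p = 0.0396), a call that was lost in each of 6 fits that left out 1 library (values 0.41 to 0.52, adjusted p 0.0614 to 0.244) and with limma. MAML2 stood at 0.51 and 1.03 RPKM in the control, 0.79 and 2.1 in line 1 and 0.95 and 1.61 in line 2; within each kit the mutants were higher, by 0.78 ± 0.21 over both lines, which missed the threshold (adjusted p = 0.0558) but passed it without the SMARTer library of line 1 (0.89, adjusted p = 0.0211). In line 1 alone MAML2 passed without that library too (1.06, adjusted p = 0.0444), and in line 2 without either library of line 1 (0.72 each, adjusted p = 0.0436 and 0.0481). MAML3 ranged from 7.06 to 11.7 RPKM, and was higher in line 1 than in line 2 only when the SMARTer library of line 1 was left out (0.72, adjusted p = 0.0177). MAML2 and MAML3 share exonic bases with MIR1260B and MGST2 on the opposite strand, so their levels are uncertain in the same way as that of RFNG.

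Among the inhibitors, NRARP fell and NUMB and NUMBL did not pass the threshold. NRARP, a target of Notch that binds its intracellular domain and dampens the signal, stood at 9.83 and 8.51 RPKM in the control, 4.36 and 4.30 in line 1, 6.34 and 4.77 in line 2, with 9.96 in ARID1A+/- cells. The 4 ARID1A-/- libraries were below both controls and the ARID1A+/- library was not. NRARP fell by 1.07 ± 0.16 on the log2 scale in line 1 (edgeR adjusted p = 0.00924) and by 0.77 ± 0.16 in line 2 (adjusted p = 0.0273). Both calls were lost without either control (line 1 adjusted p = 0.107 without SMARTer and 0.084 without KAPA, line 2 0.202 and 0.152), and that of line 2 also without its own SMARTer (0.0835) or KAPA (0.209) library, with values from -0.66 to -1.10. NUMB ranged from 9.46 to 13.1 RPKM and NUMBL, its paralogue, from 6.18 to 9.64.

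The HES and HEY genes, grouped here as targets, showed no common direction. Whether HES6 answers to Notch in these cells was not tested. HES6, which counters HES1 and is raised in neuronal precursors, was the most abundant Notch gene in the control, at 72.3 and 65.7 RPKM, and stood at 13.1 and 17.9 in line 1, 28.3 and 24.8 in line 2, with 75.8 in ARID1A+/- cells. The groups did not overlap, and line 1 lay below line 2. HES6 fell by 2.15 ± 0.17 on the log2 scale in line 1 (edgeR adjusted p = 0.00101) and by 1.42 ± 0.17 in line 2 (adjusted p = 0.00331), and line 1 was lower than line 2 (-0.74 ± 0.17, adjusted p = 0.0338). Without the SMARTer control the fall in line 2 missed the threshold (-1.30, adjusted p = 0.0641), and the gap between the lines was lost without any of 5 libraries (all but the KAPA library of line 1; values -0.48 to -0.87, adjusted p 0.0562 to 0.205).

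HES1, the best known Notch target, was on opposite sides of the control in the lines. It stood at 0.51 and 0.53 RPKM in the control, 1.55 and 1.98 in line 1, 0.19 and 0.20 in line 2, with 0.48 in ARID1A+/- cells. No library of 1 group overlapped another group. HES1 rose by 1.76 ± 0.29 on the log2 scale in line 1 (edgeR adjusted p = 0.0116) and fell by 1.45 ± 0.34 in line 2 (adjusted p = 0.0376), and line 1 exceeded line 2 by 3.22 ± 0.32 (adjusted p = 0.00249). The gap between the lines kept its call in every other setting that tested HES1. The rise was lost without the SMARTer control (1.84, adjusted p = 0.109) or the KAPA control (1.66, adjusted p = 0.101), and the fall without either control (adjusted p = 0.22 and 0.123), without either library of line 2 (0.166 and 0.21), with DESeq2 (0.0861) and with limma, at values between -0.35 and -1.55. COL1A1, and with it the summed fibroblast markers given above, was also high in line 1 and low in line 2, while LUM and DCN were above the control in both lines and PDGFRB below it; their part in the HES1 result was not tested.

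HES4, the other HES gene that fell in both lines, also read differently between the SMARTer and KAPA libraries. In SMARTer libraries it stood at 11.04 RPKM in the control, 3.16 in line 1 and 1.70 in line 2. In KAPA libraries it stood at 2.75 in the control, 0.75 in line 1 and 0.37 in line 2, with 1.60 in ARID1A+/- cells. Within each kit both lines were below the control, while across kits the SMARTer library of line 1 was above the KAPA control. HES4 fell by 1.82 ± 0.25 on the log2 scale in line 1 (edgeR adjusted p = 0.00676) and by 2.82 ± 0.27 in line 2 (adjusted p = 0.00178). In line 1 the call was lost without the SMARTer control (-1.91, adjusted p = 0.0876), without the KAPA control (-1.78, adjusted p = 0.0593) and without a term for the kit (-1.80, adjusted p = 0.468). The call in line 2 was also lost without the kit term (-2.77, adjusted p = 0.267).

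HEY1 and HEYL did not pass the threshold against the control. HEY1 stood at 1.84 and 1.46 RPKM in the control, 2.45 and 2.93 in line 1, 1.23 and 1.34 in line 2, with 1.38 in ARID1A+/- cells. Line 1 was above all other libraries, and exceeded line 2 with a log2 difference of 1.11 ± 0.26 (edgeR adjusted p = 0.0365), a call lost without any of 5 libraries (all but the SMARTer library of line 1; values 0.96 to 1.22, adjusted p 0.0566 to 0.203). HEYL, at 0.74 and 0.31 RPKM in the control and 1.11 and 1.09 in line 1, was 1.17 higher in line 1 (adjusted p = 0.0733), and passed the threshold with no filter (1.20, adjusted p = 0.0407) and without the SMARTer library of line 1 (1.69, adjusted p = 0.0167). HES2 had at most 6 counts in any library, HES5 at most 4 and HEY2 at most 3.

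**Figure D3:**
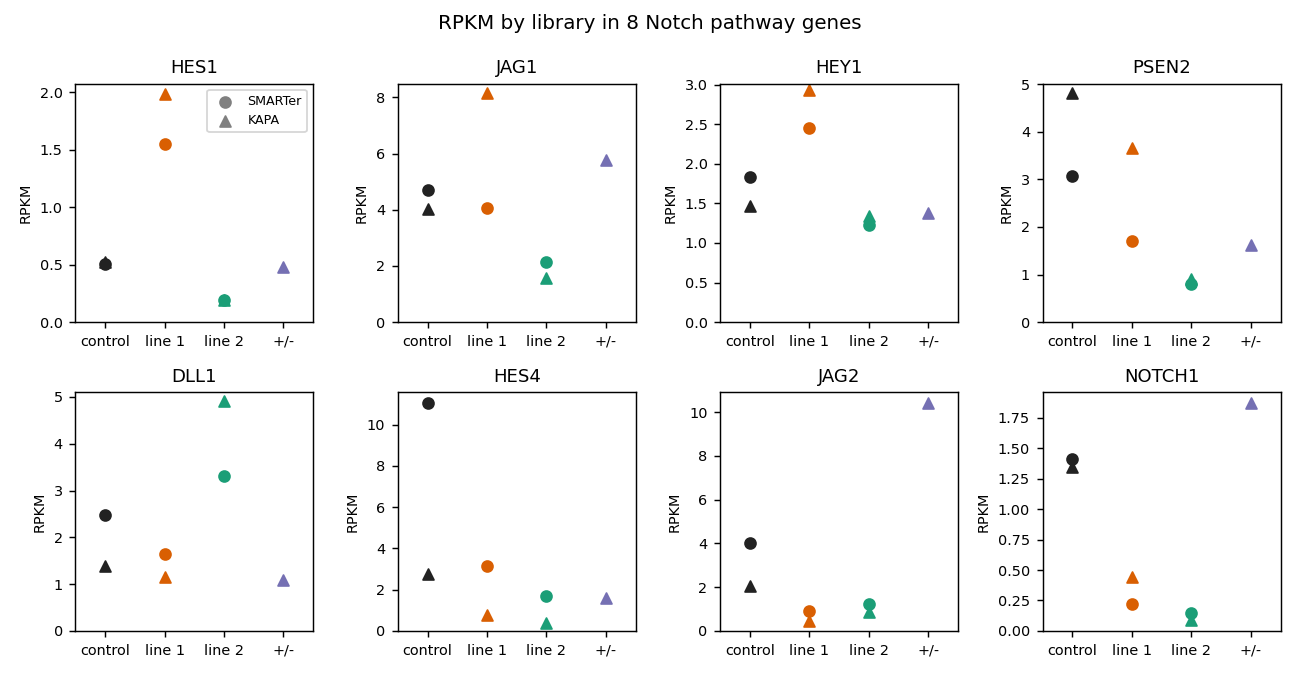
RPKM (linear axes from 0) of 8 Notch genes in each library of control, ARID1A-/- line 1, ARID1A-/- line 2 and ARID1A+/- (+/-) cells; circles are SMARTer and triangles KAPA libraries. NOTCH1 and JAG2 are below the control in both ARID1A-/- lines, HES1 is above it in line 1 and below it in line 2, and JAG2 is highest in ARID1A+/- cells.

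The lines can be set side by side, with the limit that both comparisons share the same control libraries. In line 1, 3 of the 28 tested genes rose (HES1, NCSTN and MAML1), beside 4.75% of all genes, and 7 fell, beside 8.27%. In line 2, 0 rose, beside 5.47%, and 12 fell, beside 8.52%; at an unadjusted p under 0.05 edgeR had 2 higher in line 2, beside 14.5% of all genes, and DESeq2 called 1, DLL1, where limma called 0. The 7 genes that fell in line 1 (NOTCH1, JAG2, DNER, MFNG, NRARP, HES4 and HES6) were also called lower in line 2. The matching share over all genes is not given here, so this overlap cannot be weighed against it. Another 4, JAG1, DLK1, LFNG and PSEN2, were called lower in line 2 alone, and the test of line 1 against line 2 was passed by each of these 4. In the direct test 10 of 28 genes differed between the lines, 7 higher in line 1 (JAG1, DLK1, HES1, HEY1, LFNG, PSEN2 and NCSTN), beside 5.71% of all genes, and 3 lower (DLL1, DNER and HES6), beside 7.1%. Leaving out 1 library at a time moved the number lower in line 1 between 3 (without the SMARTer control) and 8, and in line 2 between 2 (without the SMARTer control) and 13; the number higher in line 1 than in line 2 was between 1 (without the KAPA library of line 2) and 9. Without the kit term, JAG2, HES4, NCSTN, MAML1 and NRARP lost their call in line 1 (adjusted p from 0.102 to 0.468) and JAG1, JAG2, DLK1, DNER, HES1, HES4, LFNG and NRARP theirs in line 2 (0.0814 to 0.267). In line 1 against line 2, JAG1, DLL1, DLK1, HES6, HEY1, LFNG, PSEN2 and NCSTN lost theirs (0.0574 to 0.298).

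The ARID1A+/- library was set against the control of the same kit, with no replicate and so no test; a gene was counted when it differed by at least 2-fold with a 95% exact binomial interval that excluded 1. Of the 28 genes, 5 were lower, beside 5.21% of all genes, and 1 was higher, beside 3.76%. MFNG was 409-fold lower (interval 140 to 1989, on 3 against 945 counts), DNER 43.3-fold lower (19.6 to 119, on 6 against 200), HEYL 8.32-fold lower (3.22 to 27.3, on 5 against 32) and PSEN2 2.86-fold lower (2.31 to 3.57), and DLK1 stood at a ratio of 0.20 to the control (0.170 to 0.234). JAG2 was 5.22-fold higher (4.62 to 5.92). MFNG, DNER, DLK1 and PSEN2 were low in the heterozygous library as in at least 1 ARID1A-/- line, whereas JAG2 was on the other side of the control. Several genes that fell in both ARID1A-/- lines were not low there: the ratio to the KAPA control was 1.45 for NOTCH1 (1.26 to 1.66), 1.20 for HES6 (1.14 to 1.26) and 1.22 for NRARP (1.09 to 1.36). HES4, at 0.604 (0.417 to 0.873), was lower by less than 2-fold. NOTCH3, under the filter, had a ratio of 4.26 (2.44 to 7.95, on 83 against 15 counts). These intervals cover counting error in single libraries only.

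**Figure D4:**
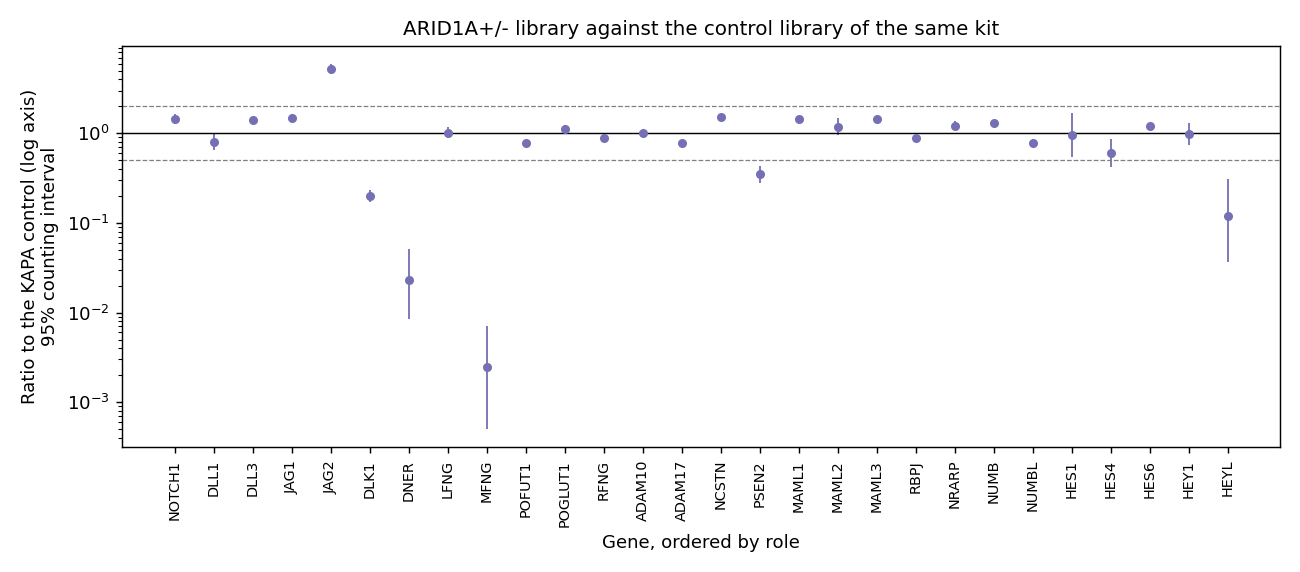
Ratio of the ARID1A+/- library to the KAPA control (log axis) for the 28 tested Notch genes, with 95% exact binomial intervals that cover counting error only. MFNG, DNER, HEYL, DLK1 and PSEN2 lie more than 2-fold below the control and JAG2 more than 2-fold above it.

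A second list held 54 other genes of the pathway, such as ubiquitin ligases, further gamma-secretase subunits, corepressors and histone acetyltransferases, of which 47 passed the filter. Over both lines 3 of the 47 rose and 3 fell, beside 4.64% and 9.57% of all genes, so these counts lie near the background, and the median change was 0.06 on the log2 scale. FURIN, the convertase that cleaves the Notch precursor, fell by 0.88 ± 0.12 (edgeR adjusted p = 0.00512), from 10.3 and 7.18 RPKM in the control to 3.78 to 5.99 in the 4 mutant libraries. XXYLT1, a xylosyltransferase acting on Notch repeats, fell by 0.64 ± 0.15 (adjusted p = 0.0388), and ITCH, a ubiquitin ligase, by 0.42 ± 0.11 (adjusted p = 0.0451). TLE4, a Groucho corepressor used by HES proteins, rose by 0.69 ± 0.11 (adjusted p = 0.0102), and CBL, a ubiquitin ligase, by 0.49 ± 0.10 (adjusted p = 0.0257). TLE2, another Groucho corepressor, was 2.58 ± 0.66 higher (adjusted p = 0.0463), a mean carried by line 2: it stood at 0.21 and 0.04 RPKM in the control, 0.34 and 0.06 in line 1, and 2.52 and 2.81 in line 2. In line 1 alone 5 of the list rose (APH1B, CNTN6, MFAP2, TLE4 and CBL) and 3 fell, FURIN and CTBP1 among them, beside 4.75% and 8.27% of all genes. In line 2 alone 3 rose (TLE2, TLE4 and CBL) and 3 fell (FURIN, XXYLT1 and TLE1), beside 5.47% and 8.52%. Over both lines the call for TLE2 was lost with RLE (edgeR adjusted p = 0.0513) or upper-quartile scaling (0.0534). That for ITCH was lost with no filter (edgeR adjusted p = 0.0546), and those for ITCH and CBL with both limma fits. Without the kit term every call but that for TLE4 was lost (edgeR adjusted p from 0.127 to 0.396). All 6 calls over both lines were lost without the SMARTer control (adjusted p from 0.121 to 0.314) and without the KAPA control (0.0627 to 0.322), and the mean for TLE2 fell to 1.62 without the SMARTer library of line 1 (adjusted p = 0.132).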

How the data were processed

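Per the labels, RNA of 7 libraries was read as single ends of 75 bp. The submitters' processing notes name HISAT2 2.1.0 and the build hg19. The counting program, its annotation and any use of strand were not given in the sources used here. For each library the authors deposited whole-number counts per named entry and RPKM values derived from those counts.

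From these, genes with a mean of at least 0.5 RPKM over the 6 control and ARID1A-/- libraries (14711) were tested on the deposited counts with edgeR 4.0.16 (quasi-likelihood F test, TMM scaling with full totals; R 4.3.3) in a model of group and kit, with 2 residual degrees of freedom. P-values were adjusted by Benjamini-Hochberg over all of them, at 0.05. Standard errors are |log2 fold change| over the root of F. The kit is also the replicate block: libraries of a kit share it per the labels, and they deviated together (correlations of 0.51, 0.63 and 0.45 between groups). The code was tested on simulated data.

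All 35 Notch genes are accounted for; of other pathway and proneural lists, the genes past the threshold are named, except that some genes of these and the marker lists are not reported here. Genes and lists were chosen with earlier results of these data known. Alternatives were DESeq2 1.42.0, RLE and upper-quartile scaling, no filter, a filter of 1 RPKM, limma 3.58.1 on log2(RPKM + 1) and log2(RPKM + 0.1), no kit term, and leaving out each library; for ARID1A and the other lists these were added after seeing the data. Precision is limited by 2 libraries a group.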

Additional observations from a re-analysis of the deposited data

Results flagged for a closer look

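The effects of the 2 ARID1A-/- lines differed for 10 Notch genes by edgeR's test of line 1 minus line 2, on the log2 scale. JAG1 (1.73), DLK1 (0.78), HES1 (3.22), HEY1 (1.11), LFNG (1.65), PSEN2 (1.59) and NCSTN (0.85) were higher in line 1. DLL1 (-1.56) and HES6 (-0.74) were lower in line 1. DNER was lower too, at a fitted -9.68 that depends on the prior count because line 1 had 0 counts; its bound is at least 70.4-fold. HES1 was the gene for which each line passed the threshold against the control on a different side. Its fall in line 2 rested on 15 and 11 counts against 43 and 25 in the control (SMARTer, then KAPA). That fall lost its call in 8 of 13 other settings.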

How the results depend on the processing

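Over 14 other settings no called value of a Notch gene (42 in all, over both lines, each line and line 1 minus line 2) turned its direction; 12 kept their call wherever they were tested and 30 lost it in at least 1 setting. Those 12 were of MFNG, DNER, NOTCH1, HES6 and HES1. All of these but HES6 entered the test through the groups in which they are high. NOTCH1 was tested in 11 of the 14 settings, and not in the fits that left out a control, while HES1 was tested in 13. The kept calls therefore cannot be set on equal terms against those of the other genes. With no replicate block (no kit term), 4 Notch genes were lower over both lines, 1 higher and 4 lower in line 1, 4 lower in line 2, and 1 higher and 1 lower in line 1 minus line 2. With no filter, 2 were higher over both lines, 6 in line 1 and 2 in line 2. DESeq2 gave 1 higher over both lines, 1 in line 2 and 5 in SMARTer against KAPA, where limma on log2(RPKM + 1) gave 1. Leaving out 1 library at a time gave 0 to 1 higher and 3 to 11 lower over both lines, 0 to 5 and 3 to 8 in line 1, 0 to 2 and 2 to 13 in line 2, and 1 to 9 and 1 to 2 in line 1 minus line 2. No share over all genes in the same setting is given beside these counts. The cause of the changes in count was not tested, and a group left with 1 library is assumed to vary like the others. Depth limits NOTCH2, HES2, HES5 and HEY2, which had at most 6 counts in a library: HES2, for one, had 1 count over both lines against 8 in the control, 17.1-fold lower with a counting interval of 2.30 to 760. NOTCH4 had 0 counts in all libraries and gives no ratio.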

Other observations

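Proneural factors, which HES proteins are known to repress, were listed with their E protein partners and the ID proteins that inhibit them, 18 genes in all. Of these, 12 passed the filter. Over both lines 1 rose and 4 fell by edgeR's test, beside 4.64% and 9.57% of all genes. NEUROD1 and NEUROD2, neuronal differentiation factors, were among the falls: NEUROD2 had 380 and 45 counts in the control (SMARTer, then KAPA), 1 and 3 in line 1, 0 in either library of line 2, with 128 in ARID1A+/- cells. ATOH8, a related factor, stood at 3.57 and 3.30 RPKM in the control, 0.95 and 0.67 in line 1 and 0.34 and 0.93 in line 2 (-2.29 ± 0.36 on the log2 scale, edgeR adjusted p = 0.00929), and at 7.71 in ARID1A+/- cells. ID1, which blocks proneural factors from binding DNA, fell by 0.74 ± 0.16 (edgeR adjusted p = 0.0305). TCF4, an E protein they pair with, rose by 0.80 ± 0.10 (edgeR adjusted p = 0.0034). Of the other E proteins listed, TCF3 was not called, and TCF12 was called lower in line 2 alone. Its log2 value there was -0.9 to -0.6 over 14 other settings, and 5 of them lost the call. The calls for ATOH8 and TCF4 were lost without the SMARTer control (-2.02, adjusted p = 0.172, and 0.80, adjusted p = 0.0714) or the KAPA control (-2.57, adjusted p = 0.0627, and 0.76, adjusted p = 0.054). That for ID1 was lost without the SMARTer control (-0.40, adjusted p = 0.285) or the SMARTer library of line 2 (-0.62, adjusted p = 0.0617).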
